A study of Mus musculus with 8 samples.

Results

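The transcripts described here are those of hemoglobin and of its red cell specific heme enzyme in mouse prefrontal cortex. They were chosen by gene name: Hba-a1, Hba-a2, Hbb-b1, Hbb-b2 and Alas2. Each of these 5 genes had 1 probe on the array, so that 5 of 55681 probes other than controls, and 5 of 34650 gene names, were taken. The males studied, 4 α-Gal A(-/0) and 4 wildtype, were 20 to 24 weeks old and of strain C57BL/6J per the labels, with 1 one-color array for each mouse. Loss of α-galactosidase A, encoded by the X-linked gene Gla, models Fabry disease, and a male carries a single, null copy. The 2 genotypes came from separate inbred colonies, so genotype and colony cannot be told apart. The mice were killed by decapitation, and the frozen cortex held its blood vessels together with neurons and glia.

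Hemoglobin is a tetramer of 2 alpha and 2 beta chains, each with a heme group that binds oxygen. Alas2, the erythroid 5-aminolevulinate synthase, makes the first precursor of that heme in developing red cells. Mature mammalian red cells have no nucleus, but young red cells in the blood still hold globin mRNA, and globin mRNA has also been described in neurons and glia. In bulk tissue fewer cells of a type and less RNA per cell cannot be told apart.

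The probes are shown first because they decide which gene copies each value can stand for. Those of Hba-a1 and Hbb-b2 lie in the coding sequence. Capitals mark the bases that both share in their best alignment without gaps, 25 of 40 aligned bases.
Hba-a1 probe: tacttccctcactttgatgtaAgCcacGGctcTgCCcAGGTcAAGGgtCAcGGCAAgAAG
Hbb-b2 probe: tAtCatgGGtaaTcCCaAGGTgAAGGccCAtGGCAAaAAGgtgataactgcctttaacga
The array design places the Hba-a1 probe on the plus strand of mm9 at chr11:32183955-32184014 and gives the Hbb-b2 probe no position on mm9. It lists transcripts of both alpha genes for the Hba-a1 probe, and transcripts of both Hbb-b2 and Hbb-b1 for the Hbb-b2 probe. The Hba-a2 probe, at chr11:32197245-32197304 on the plus strand and 13.3 kb from that of Hba-a1, likewise lists both alpha genes. It reaches the end of the transcript, and a stretch of 30 bases is shown with the polyadenylation signal AATAAA in capitals.
Hba-a2 probe, part: cctcttggtctttgAATAAAgcctgagtag
The Hbb-b1 probe lies at the start of its transcript, at chr7:110976379-110976438 on the minus strand of mm9. It lists transcripts of Hbb-b1 and of Hbb-bs. Over the 46 bases that could be aligned, it was identical to the RefSeq sequence of Hbb-bs, and it shared 38 of 45 aligned bases with Hbb-bt. Hbb-bs and Hbb-bt are the adult beta globin genes of the C57BL/6J strain. The first 30 bases of the probe and the same stretch of Hbb-bt (RefSeq, GRCm38.p6) are shown with the 6 differences in capitals.
Hbb-b1 probe, part: tttgcttctgaCATAgttgtgttgactCAc
Hbb-bt, same stretch: tttgcttctgaTTCTgttgtgttgactTGc
The Alas2 probe, at chrX:147004993-147005052 on the plus strand, crosses the end of the coding sequence. Its stop codon is in capitals, and 18 bases follow it.
Alas2 probe: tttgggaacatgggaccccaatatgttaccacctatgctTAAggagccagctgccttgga
The alpha probes thus do not separate Hba-a1 from Hba-a2, and values of the beta probes stand for the beta globin copies they match.

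The 250 bases before the start are shown for 3 genes, Hbb-bs standing for the Hbb-b1 probe that lists it, so that an alpha chain, a beta chain and the heme enzyme can be compared. RefSeq sequence (GRCm38.p6) was at hand for Hba-a1, Hba-a2, Alas2, Hbb-bs and Hbb-bt. Capitals mark GATAA, the core bound by GATA factors, CACCC, the core bound by KLF factors, and CCAAT, all on either strand.
Hba-a1, chr11:32283422-32283671, plus strand: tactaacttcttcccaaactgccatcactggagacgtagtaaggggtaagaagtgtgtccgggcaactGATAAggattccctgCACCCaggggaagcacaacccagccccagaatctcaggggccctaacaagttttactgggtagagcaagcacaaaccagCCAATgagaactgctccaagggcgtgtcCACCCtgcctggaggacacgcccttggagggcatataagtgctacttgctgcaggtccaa
Hbb-bs, chr7:103827929-103828178, minus strand: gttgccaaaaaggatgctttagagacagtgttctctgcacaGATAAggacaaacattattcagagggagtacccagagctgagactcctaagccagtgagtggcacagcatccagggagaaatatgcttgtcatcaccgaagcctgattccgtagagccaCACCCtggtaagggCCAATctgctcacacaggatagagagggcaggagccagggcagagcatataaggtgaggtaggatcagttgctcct
Alas2, chrX:150547167-150547416, plus strand: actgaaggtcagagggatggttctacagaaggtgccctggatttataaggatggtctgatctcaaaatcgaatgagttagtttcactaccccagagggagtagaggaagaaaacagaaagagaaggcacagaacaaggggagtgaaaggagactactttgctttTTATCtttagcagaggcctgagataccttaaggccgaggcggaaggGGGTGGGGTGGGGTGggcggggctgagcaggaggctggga
The Hba-a2 window is the same sequence as that of Hba-a1, shifted by 3 bases, with 247 of 247 shared bases identical. All 3 motifs occurred in the windows of both alpha genes, of Hbb-bs and of Hbb-bt. The Alas2 window held 1 GATAA and 3 CACCC, which follow one another without a gap or overlap, and no CCAAT. Of 32851 such windows, 22.6% held GATAA, 52% CACCC, 33.8% CCAAT and 3.45% all 3, so each motif alone is common.

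Signals are given as log2 of the processed intensity after quantile normalization over the 8 arrays, a scale on which 1 unit is a 2-fold difference. Between 29934 and 36131 probes were well above background on arrays of α-Gal A(-/0) mice, and between 35639 and 38227 on arrays of wildtype mice, and arrays correlated at r of 0.981 to 0.996. There was 1 slide and 1 scan for all 8. The Gla probe did not separate the genotypes (17.13 to 17.18 in α-Gal A(-/0) and 17.01 to 17.17 in wildtype mice), and where it lies relative to the null allele was not examined. Markers of cortical neurons were well above background on all 8 arrays, 12 of 12 genes.

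Wildtype mice 2 and 3 stood apart from the other 6 mice at 1 gene outside the 5 described here, which was seen in the data and not given by the labels. Results on the genotypes are therefore also given without these 2 mice, and the part of that difference in the results was not tested.

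None of the 5 probes passed the test between the genotypes. All 5 were well above background on all 8 arrays, none was saturated, and the values of the genotypes overlapped for each. In a limma fit over 34326 tested probes (each well above background in every mouse of one or both genotypes) 0 of the 5 were called at an adjusted p under 0.05, where 0.883% of all probes were called, 105 with a higher and 198 with a lower signal in α-Gal A(-/0) mice. At an unadjusted p under 0.05 the count was 0 of 5 against 12.0% of all probes. Groups that did not overlap were found for 0 of 5 against 7.94% of all probes.

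**Figure D1:**
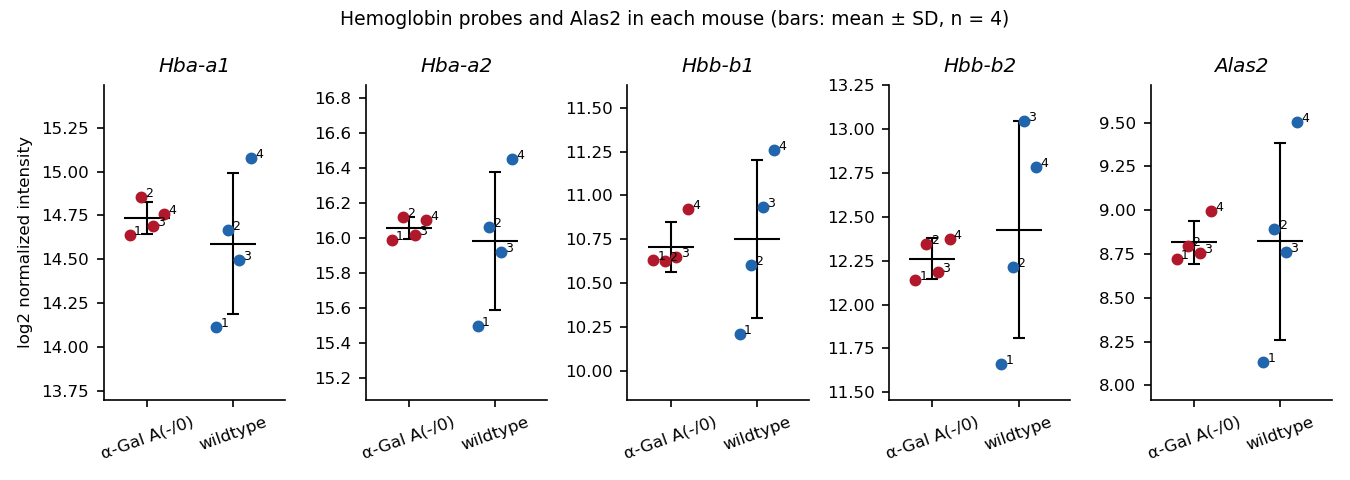
Log2 normalized intensity of the 5 probes in each mouse (points, numbered by mouse) with mean and SD of 4 mice, α-Gal A(-/0) left and wildtype right; every panel spans the same height. The α-Gal A(-/0) mice lie close together, within 0.13 to 0.29 log2 units, and the wildtype mice spread over 0.95 to 1.39.

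The alpha chain probes gave the strongest signals. Hba-a1 had 14.64, 14.85, 14.69 and 14.76 in α-Gal A(-/0) mice 1 to 4, against 14.11, 14.67, 14.49 and 15.08 in wildtype mice 1 to 4. Wildtype mouse 1 was lowest and wildtype mouse 4 highest, with all α-Gal A(-/0) mice between them. The log2 fold change was 0.15 ± 0.18 (SE; adjusted p = 0.785), and its 95% interval, 0.83 to 1.48 as a fold, leaves room for a modest difference either way. Hba-a2 had 15.99, 16.12, 16.02 and 16.10 in α-Gal A(-/0) mice and 15.50, 16.06, 15.92 and 16.45 in wildtype mice. The same wildtype mice were at the ends, and the log2 fold change was 0.07 ± 0.18 (adjusted p = 0.903; interval 0.80 to 1.39 as a fold).

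The beta chain probes overlapped as well. Hbb-b1 had 10.63, 10.63, 10.65 and 10.92 in α-Gal A(-/0) mice and 10.21, 10.60, 10.94 and 11.26 in wildtype mice. Here 3 α-Gal A(-/0) mice were nearly equal and the fourth stood above them, while wildtype mouse 1 was again lowest and mouse 4 highest. The log2 fold change was −0.04 ± 0.21 (adjusted p = 0.957; interval 0.70 to 1.35 as a fold). Hbb-b2 had 12.14, 12.34, 12.19 and 12.38 in α-Gal A(-/0) mice and 11.66, 12.22, 13.05 and 12.79 in wildtype mice. For this probe alone wildtype mouse 3, not mouse 4, was highest. The log2 fold change was −0.17 ± 0.27 (adjusted p = 0.852; interval 0.58 to 1.38 as a fold).

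Alas2 followed the same order at the extremes, although it belongs to another gene family on another chromosome. Its signals were 8.72, 8.79, 8.75 and 8.99 in α-Gal A(-/0) mice and 8.13, 8.89, 8.76 and 9.50 in wildtype mice. The log2 fold change was −0.0049 ± 0.25 (adjusted p = 0.997; interval 0.67 to 1.48 as a fold), so that its means were nearly equal while single wildtype mice differed 2.59-fold.

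Slide position and the choice of wildtype mice bear on these directions. With slide row as a block, Hba-a1 and Hba-a2 turned to −0.05 and −0.10, and neither was called. Within row 2, where 3 α-Gal A(-/0) mice stood beside wildtype mouse 4, all 5 probes were lower in α-Gal A(-/0) mice (−0.31 to −0.66), and within row 1, where α-Gal A(-/0) mouse 1 stood beside wildtype mice 1, 2 and 3, 4 of 5 were higher, both with no test. Without wildtype mice 2 and 3, 0 of 5 were called and Hbb-b2 turned to 0.04.

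**Figure D2:**
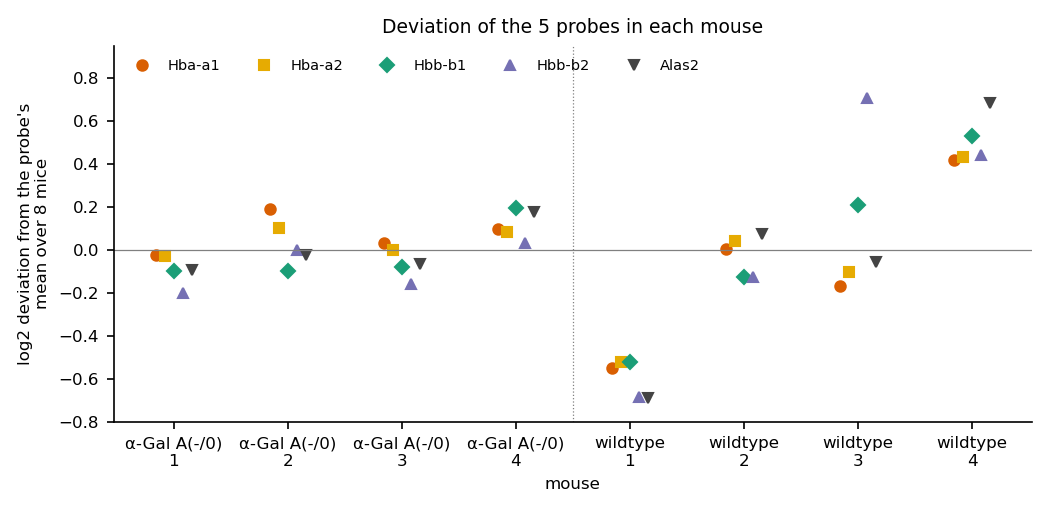
Log2 deviation of each of the 5 probes from its own mean over 8 mice, by mouse, α-Gal A(-/0) left of the dotted line and wildtype right. All 5 probes are below their mean in wildtype mouse 1 and above it in wildtype mouse 4, and Hbb-b2 alone is far above in wildtype mouse 3 (0.71).

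The spread between mice was wider in wildtype than in α-Gal A(-/0) mice for all 5 probes. Standard deviations in α-Gal A(-/0) and wildtype mice were 0.09 and 0.40 for Hba-a1, and 0.06 and 0.39 for Hba-a2. They were 0.14 and 0.45 for Hbb-b1, 0.12 and 0.62 for Hbb-b2, and 0.12 and 0.56 for Alas2. For each probe the spread was thus 3.14 to 6.22 times larger in wildtype mice. Most probes of the array went the other way, since 34.2% had a larger standard deviation in wildtype mice and the median ratio of wildtype over α-Gal A(-/0) was 0.77. The array of α-Gal A(-/0) mouse 2 had 29934 probes well above background, against 35206 to 36131 on the others of its genotype. The part of that array in this array-wide ratio was not tested. The 5 ratios lay between the 97.2 and the 99.5 percentile of all tested probes. This is a description with no test, in 4 mice a genotype, of 5 probes that share their extreme mice: wildtype mouse 1 was lowest for 5 of 5 and wildtype mouse 4 highest for 4 of 5.

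The array of wildtype mouse 1 was also the brightest, with a 75th percentile of log2 signal of 10.01, against 9.54 to 9.69 on arrays of α-Gal A(-/0) mice and 9.60 to 9.86 on the other wildtype arrays. Before normalization the lowest Hbb-b1 signal was that of an α-Gal A(-/0) mouse, with 1398 units, against 1434 units in wildtype mouse 1, which was lowest for the other 4 probes. Without normalization between arrays the 5 ratios of standard deviations lay between the 81.2 and the 94.6 percentile. Wildtype mouse 4 stayed highest for 4 of 5 probes, with 2605 units for Hbb-b1. The part of array brightness in the low values of wildtype mouse 1 was not tested.

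**Figure D3:**
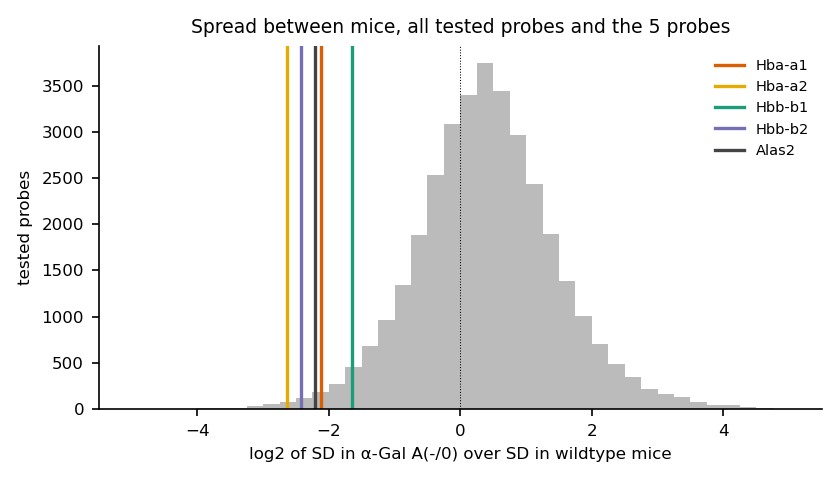
Histogram over tested probes of the log2 ratio of the standard deviation in α-Gal A(-/0) mice over that in wildtype mice, n = 4 each, with the 5 probes as vertical lines. The 5 lines stand in the left tail, where spread was larger in wildtype mice, whereas the bulk lies right of 0.

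The probes rose and fell together over the 8 mice. All 10 pairs of genes had a positive Pearson's r, and 6 passed an exact two-sided permutation test after adjustment over the 10 pairs. The alpha pair was closest, with r = 0.99 (exact permutation p = 7.44e-05, adjusted p = 0.000744) and Spearman's rho = 0.98 (exact permutation p = 0.000397, adjusted p = 0.00397). Its probes list the same transcripts, so this pair is not a comparison of independent genes. Alas2 followed Hba-a2 with r = 0.97 (exact permutation p = 0.00367, adjusted p = 0.0184) and rho = 0.86 (exact permutation p = 0.0107, adjusted p = 0.0536). It followed Hba-a1 with r = 0.93 (exact permutation p = 0.00804, adjusted p = 0.0212) and rho = 0.79 (exact permutation p = 0.0279, adjusted p = 0.0698).

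The other 3 pairs that passed held a beta probe. Hbb-b1 and Alas2 gave r = 0.92 (exact permutation p = 0.01, adjusted p = 0.0212) and rho = 0.55 (exact permutation p = 0.171, adjusted p = 0.285). Hbb-b1 and Hbb-b2 gave r = 0.86 (exact permutation p = 0.0106, adjusted p = 0.0212) and rho = 0.79 (exact permutation p = 0.0279, adjusted p = 0.0698). Hbb-b1 and Hba-a2 gave r = 0.84 (exact permutation p = 0.0267, adjusted p = 0.0444) and rho = 0.38 (exact permutation p = 0.36, adjusted p = 0.36). The other 4 pairs, with r of 0.53 to 0.77, did not pass after adjustment, the lowest adjusted p being 0.0502 for Hba-a1 and Hbb-b1. By rank, 1 of 10 pairs passed.

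Of the 6 relations that passed, 4 rested on wildtype mice 1 and 4. With the 2 mice farthest from the median left out, r over the remaining 6 mice was 0.95 for the alpha pair (exact permutation p = 0.00417) and 0.76 for Hbb-b1 and Hbb-b2 (exact permutation p = 0.0222). It was 0.96 for Hbb-b2 and Alas2, where mice 1 and 3 of wildtype were those left out (exact permutation p = 0.0181). For the other 4 of the 6 pairs that had passed the relation no longer held. For the 4 pairs of an alpha with a beta probe, of which 1 had passed, r was below 0. For Alas2 with Hba-a2 it was 0.60 (exact permutation p = 0.21).

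**Figure D4:**
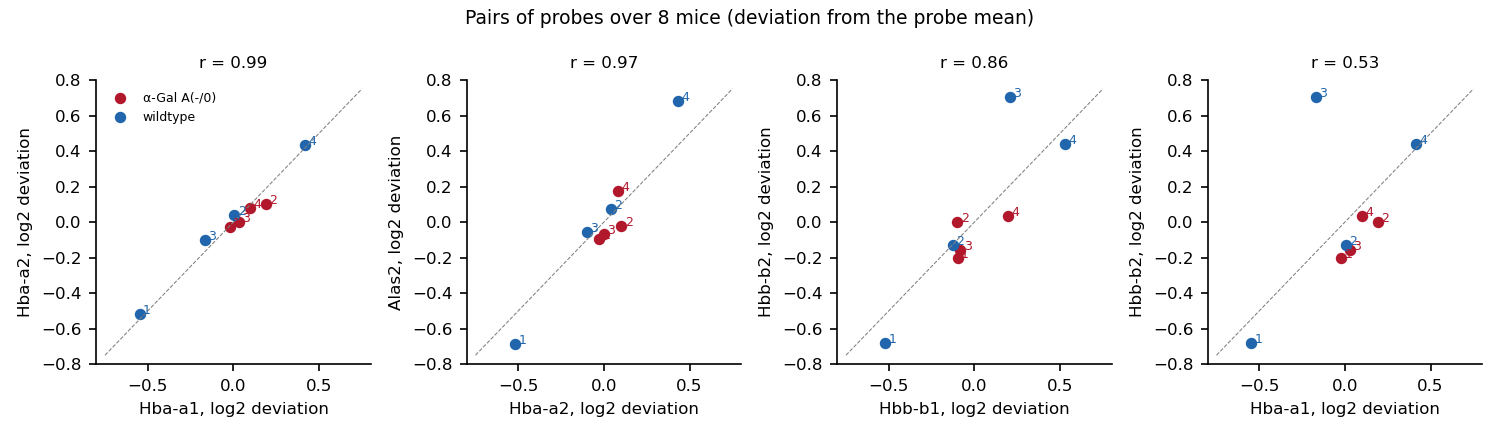
Log2 deviation from the probe mean for 4 pairs of probes over 8 mice (points numbered by mouse, red α-Gal A(-/0) and blue wildtype), with the line of equal deviation dashed and Pearson's r above each panel. The alpha pair lies on the line (r = 0.99), and in the panel of Hba-a1 and Hbb-b2 (r = 0.53) wildtype mouse 3 lies far above it.

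Wildtype mouse 3 had a high Hbb-b2 signal without a like rise of the alpha probes or of Alas2. Its Hbb-b2 deviation less its Hba-a1 deviation was 0.87, against −0.19, −0.19, −0.18 and −0.07 in α-Gal A(-/0) mice and −0.14, −0.13 and 0.02 in the other wildtype mice. Relative to Hba-a1, the Hbb-b2 signal of this mouse was thus 1.94 times that of the other wildtype mice. The same held against Hbb-bt, whose probe had 13.83, 14.11, 13.96 and 14.11 in α-Gal A(-/0) mice and 13.35, 13.96, 13.93 and 14.56 in wildtype mice. The Hbb-b1 probe of that mouse was in between, with a deviation of 0.21. Without wildtype mouse 3, which was chosen for this departure, r of Hbb-b2 over 7 mice was 0.98 with Hba-a1, 0.99 with Hba-a2 and 0.98 with Alas2, a description with no test. Without wildtype mouse 1 instead it was 0.035, 0.20 and 0.39 for the same pairs. The Hbb-b2 probe has no position on mm9 and lists transcripts of both beta genes, DNA was not examined, and whether the mice differ in sequence under this probe was not tested.

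Differences between probes of one mouse were compared next, among the 5 and Hbb-bt. They remove a shared signal only in part where one probe moves more than the other, as Alas2 and Hbb-bt did with slopes of 1.36 and 1.23 on Hba-a1. Of 7 such differences compared between the genotypes, 1 did not overlap: Hba-a2 less Hba-a1 was −0.09 to −0.01 in α-Gal A(-/0) mice and 0.01 to 0.07 in wildtype mice. The exact permutation test gave p = 0.0286, the smallest that 70 relabelings allow, and p = 0.2 after adjustment over the 7, and the difference of the means was 0.07 log2 units in size. The other 6 had adjusted p of 0.36 or more by the same exact permutation test.

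A single globin probe was next used as the measure of globin signal in each mouse, with genotype in the fit. The Hbb-b1 probe was used, and 0 of 34325 other probes had a slope on it at an adjusted p under 0.05 (0% called), while 2.54% had an unadjusted p under 0.05. Alas2 changed by 1.11 ± 0.20 log2 units per unit of Hbb-b1 (rank 6 by p), Hbb-bt by 0.98 ± 0.19 (rank 10), Hbb-b2 by 1.16 ± 0.26, Hba-a2 by 0.73 ± 0.18 and Hba-a1 by 0.72 ± 0.20. A slope near 1 means that both probes moved by about the same factor. None was called, with an adjusted p of 0.9999 for each.

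With Hba-a2 as the measure, which was chosen after the data were seen, 3 of the 4 probes with the lowest p were erythroid. They were Alas2 with a slope of 1.42 ± 0.14, Hbb-bt with 1.27 ± 0.13 and Hba-a1 with 1.03 ± 0.11, at an adjusted p of 0.248 for each, and 0 of 34325 were called. The probes of Hba-a1 and Hba-a2 list the same transcripts, so the slope of Hba-a1 is not that of an independent gene. The choice of the measure changed which probes came first, and the count called was 0 with each of the 5 probes. Without wildtype mouse 1, the probes with an unadjusted p under 0.05 for a slope on Hbb-b1 numbered 3345, against 872 with all mice, and 0 were called.

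The genes whose signal over 8 mice was most like Hbb-b1 were ranked among 23620 genes. Rnf141, a ring finger protein gene, came first with r = 0.95, followed by Wfdc17, a WAP domain gene, with r = 0.95, S100a3 with 0.94, Eef1a1, a translation elongation factor, with 0.94 and G6pd2 with 0.93. Rpl30, Gm6444, Gm16863, NAP025704-001 and Gm7555 followed at 0.91 to 0.93. Wfdc17 was also close to Alas2 (0.97) and to Hba-a1 (0.87), whereas Eef1a1 reached 0.63 with Hba-a1. On the same scale Alas2 would rank 8, Hbb-bt 13, Hbb-b2 29, Hba-a2 51 and Hba-a1 152. The lowest values were those of 4930449A18Rik (−0.96), 1500032F14Rik (−0.94), Stk19 (−0.94), Map7d1 (−0.93) and NAP114020-1 (−0.92). With 8 mice and so many genes high values are common, and these are descriptions with no test.

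Adding the Hbb-b1 signal to the genotype fit left most calls in place. With it 246 of 34326 probes were called (0.717%), 96 with a higher and 150 with a lower signal in α-Gal A(-/0) mice, against 303 without it. Of the 303, 229 were kept and 74 lost, and 17 were gained. Lost probes stayed near the threshold, with adjusted p up to 0.0991. Cdhr1, a cadherin-related gene, differed by 1.73 (log2, adjusted p = 0.0254) without and 1.72 (adjusted p = 0.0559) with the globin term. The others among the 5 largest losses were TC1624885, Gm3161 and ENSMUST00000110971, with log2 fold changes of −1.98, −1.63 and −1.62 without the term, and an unnamed interval. Among the 5 largest changes gained, Tmem181b-ps had 2.10 (adjusted p = 0.0215) and Slc2a5, a fructose transporter gene, 1.66 (adjusted p = 0.0348), both with the term, and an unnamed interval had 1.67. With the term the count fell to 59 without wildtype mice 2 and 3. The count without the term was not taken in those fewer mice, so the part of the term in this fall was not tested.

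Other genes of red cells gave little signal that followed the globin probes. Of 33 red cell genes measured, 19 were tested, 0 were called by genotype and 0 by slope, and the median log2 fold change was 0.03, against −0.02 over all 23625 genes tested. The hemoglobin stabilizer Ahsp and the erythroid factor Klf1 were not well above background on any array. Slc4a1, the band 3 anion exchanger, had 5.45, 5.91, 5.73 and 6.09 in α-Gal A(-/0) mice and 5.78, 5.95, 5.77 and 6.19 in wildtype mice, with a slope on Hbb-b1 of 0.39. The lowest p by genotype was that of Bpgm, which makes 2,3-bisphosphoglycerate, the ligand that lowers oxygen affinity, with 11.71 ± 0.04 in α-Gal A(-/0) and 11.48 ± 0.15 in wildtype mice (SD, n = 4 each; limma, adjusted p = 0.319). Tal1, an erythroid and endothelial transcription factor, differed by −0.23 on the log2 scale (limma, adjusted p = 0.369), and Hemgn, a nuclear protein of blood cell precursors, by 0.18 (adjusted p = 0.436). The Hemgn probe had 13.95 to 14.19 in α-Gal A(-/0) and 13.72 to 13.99 in wildtype mice, above the Hbb-b1 and Hbb-b2 probes in every mouse. Which cells or transcripts give this strong signal was not tested. The lowest p for a slope on Hbb-b1 were those of Slc4a1, Bnip3l, Ermap and Hemgn, with slopes of 0.39, 0.22, 0.35 and 0.19.

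Among other globins, the embryonic chains Hba-x and Hbb-y were not well above background on any array. The adult chain gene Hbb-bt differed by 0.05 on the log2 scale (adjusted p = 0.951). Ngb, the neuroglobin of neurons, had 7.69 ± 0.14 in α-Gal A(-/0) and 7.40 ± 0.25 in wildtype mice by its brighter probe (SD, n = 4 each), a log2 fold change of 0.29 (limma, adjusted p = 0.426). Cygb, cytoglobin, had −0.08 (adjusted p = 0.684), and the embryonic Hbb-bh1 −0.22 (adjusted p = 0.715). Of 4 tested genes 0 were called.

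Heme genes were measured throughout the pathway, 14 of 14, and 0 were called. Alas1, the housekeeping counterpart of Alas2, differed by −0.04 (log2 fold change, adjusted p = 0.886) and had a slope of 0.09, while Alas2 had a slope of 1.11. Slc25a37, the mitochondrial iron importer mitoferrin, had 0.21 (adjusted p = 0.252), Urod −0.10 (adjusted p = 0.485) and Bach1, a heme-sensing repressor, −0.14 (adjusted p = 0.522). Values of the genotypes did not overlap for Slc25a37 and Urod. Of 12 tested genes of hemoglobin and heme clearance 0 were called, with Trf, transferrin, at 0.26 (adjusted p = 0.33), Ftl1, ferritin light chain, at −0.13 (adjusted p = 0.451), and Hmox1, heme oxygenase, at 0.03 (adjusted p = 0.968) and with the lowest p for a slope, 0.45.

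**Figure D5:**
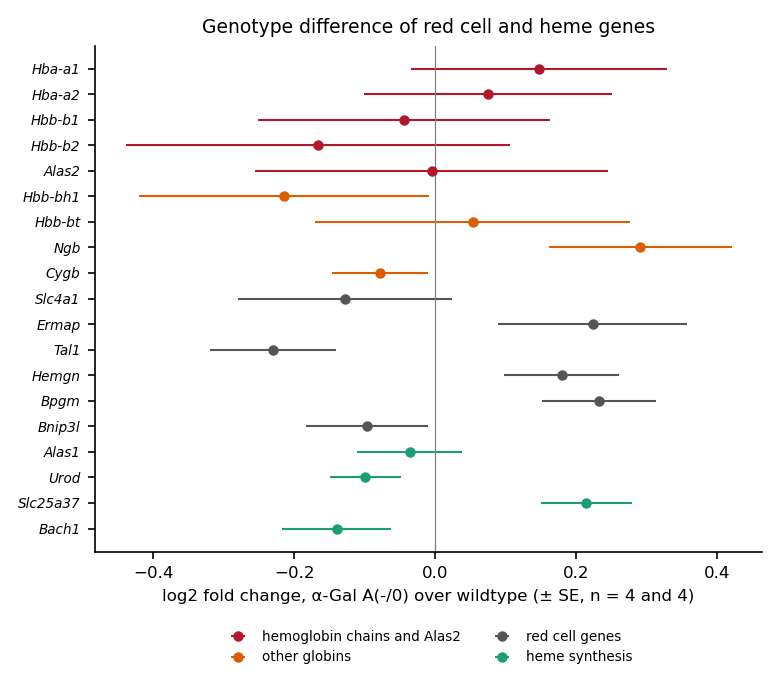
Log2 fold change of α-Gal A(-/0) over wildtype mice with its SE, n = 4 each, for the 5 probes and for the tested genes of 3 lists that are named in the text, each by its brightest probe. No gene shown was called, and the 5 probes have SEs of 0.18 to 0.27.

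Markers of other blood and vessel cells were set beside the globin probes. Of 9 tested platelet genes 1 was called: Gp9, glycoprotein IX, had 5.07, 5.17, 5.33 and 5.68 in α-Gal A(-/0) mice and 6.19, 6.16, 6.56 and 6.79 in wildtype mice. It fell by 1.11 ± 0.18 on the log2 scale (limma, adjusted p = 0.0326), and it was well above background in 3 of 4 α-Gal A(-/0) and 4 of 4 wildtype mice. This call was lost without any one of 4 mice, α-Gal A(-/0) mouse 2 or 3 or wildtype mouse 1 or 4. It entered the test through the wildtype mice, and no gene of any list was called without a filter on signal, with probes well above background on all 8 arrays only, with the methods' t-test or without wildtype mice 2 and 3. Log2 fold changes were −0.45 for Pf4, platelet factor 4 (adjusted p = 0.31), −0.84 for Ppbp (adjusted p = 0.305), and 0.41 for Gp5 (adjusted p = 0.295), so members of the list pointed both ways. The mean deviation of the 9 tested genes was −0.24 to −0.03 in α-Gal A(-/0) and 0.07 to 0.21 in wildtype mice. This mean holds Gp9 and Ppbp, which passed the filter through the wildtype mice alone (Ppbp with 2 of 4 α-Gal A(-/0) mice). Itga2b is left out as not tested, with 4.76 to 5.48 in α-Gal A(-/0) and 4.33 to 4.67 in wildtype mice. Since the filter thus shaped the mean, no conclusion is drawn from these ranges.

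Neutrophil markers (7 tested), lymphocyte markers (7), endothelial markers (15), mural cell markers (11), meningeal and fibroblast markers (10), choroid plexus markers (7) and cortical neuron markers (12) had 0 called. Median log2 fold changes were −0.17 for neutrophil, 0.08 for lymphocyte, −0.13 for endothelial and −0.02 for mural cell markers, against −0.02 over all genes tested. Flt1, a VEGF receptor of endothelium, had −0.25 (limma, adjusted p = 0.227) and Abcc9, of pericytes, −0.37 (adjusted p = 0.217). Kdr, another VEGF receptor of endothelium, had 0.22 (limma, adjusted p = 0.417), so members of the endothelial list pointed both ways. Slopes on Hbb-b1 were positive for 15 of 15 endothelial genes (median 0.20) and 10 of 10 meningeal and fibroblast genes (median 0.24), against 13130 of 23625 genes in all (median 0.02), and 0 of them were called. They were positive for 6 of 7 neutrophil genes (median 0.17), 5 of 7 lymphocyte genes (0.02), 8 of 11 mural cell genes (0.09), 13 of 19 red cell genes (0.11) and 7 of 12 neuron genes (0.02), but for 4 of 9 platelet genes (−0.01) and 3 of 7 choroid plexus genes (−0.07). Vwf, von Willebrand factor, had the lowest p for a slope among endothelial genes, with a slope of 0.43. The mean deviation of the endothelial list was −0.14 to 0.15 in α-Gal A(-/0) and −0.04 to 0.22 in wildtype mice, highest in wildtype mouse 4, and its part in the globin signal was not tested.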

How the data were processed

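The 8 arrays were 1-color Agilent SurePrint G3 mouse arrays, 1 per mouse. The deposited processed intensity values were made by the authors' provider with Agilent Feature Extraction 10.7.3.1 and, per the file headers, not normalized between arrays. Flags for saturated, uneven and dim spots came from the same files as deposited. A table of log2 values, as deposited by the authors, was not used here.

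Members and gene lists were chosen with earlier results of these data known. Genotypes came from the labels. Intensities were averaged per probe, taken to log2 and quantile normalized over non-control probes; 81 probes with an uneven spot were left out, and a probe was tested where every array of a genotype, or of both, showed it well above background. Genotype and slope were tested with limma 3.58.1 (lmFit, eBayes, two-sided; R 4.3.3, statmod 1.5.0 for the robust setting), Benjamini-Hochberg adjusted over all tested probes, called under 0.05. Correlations over 8 mice used all 40320 reorderings. The fits were tested on simulated data. The number of arrays limits the precision.

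Named were all probes of the 5 genes, up to 4 genes of each list by the lowest p in the genotype and in the slope fit, the 10 genes most and 5 least like Hbb-b1, the 5 probes with the largest change lost or gained with the globin term, and Gla. From these, some of the genes of blood and vessel lists are given, and a few genes are not reported here, among them the one at which wildtype mice 2 and 3 stood apart; counts over lists include them. Hbb-bt, Ahsp, Klf1, Hba-x and Hbb-y were named after their values were seen. The 7 differences between probes were also chosen after the data were seen. Promoter windows were searched with Python 3.11.15 (pandas 2.3.3, numpy 2.4.6), and figures drawn with matplotlib 3.10.9.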

Additional observations from a re-analysis of the deposited data

Results flagged for a closer look

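Within each genotype, 24 sets of 4 values were examined for 1 value far from the other 3 (the gap to its nearest neighbor over the range of the 4, above Dixon's 95% critical value), of which chance alone marks about 1 in 20, and 4 were marked. The Hbb-b1 signal of α-Gal A(-/0) mouse 4 was high among its genotype (0.939). The Hbb-b2 signal less that of Hba-a1 was high in α-Gal A(-/0) mouse 4 (0.911) and in wildtype mouse 3 (0.842). The Hbb-b2 signal less that of Hbb-bt was high in wildtype mouse 3 (0.902). The sets share probes and mice, and the marks on wildtype mouse 3 are of a single signal, that of Hbb-b2.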

How the results depend on the processing

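No alternative called any of the 5 probes by genotype, or any probe by its slope on a globin probe. Each of the 5 genes has 1 probe, so averaging the probes of a gene changed no value of the 5, and no probe was saturated. Unnormalized signals, omission of wildtype mice 2 and 3, slide rows alone, and Hba-a2 or Hbb-b2 as the measure were chosen after seeing the data.

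Log2 fold changes turned in sign in these settings: Alas2 to 0.0085 with a 75th percentile shift; Hba-a1 and Hba-a2 to −0.048 and −0.10 with slide row as a block, to −0.063 and −0.099 without normalization, and to −0.31 and −0.37 within slide row 2; Hbb-b1 and Alas2 to 0.049 and 0.13 within slide row 1; and Hbb-b2 to 0.038 without wildtype mice 2 and 3. With single mice left out they ran from −0.011 to 0.31 for Hba-a1, from −0.086 to 0.23 for Hba-a2, from −0.23 to 0.13 for Hbb-b1, from −0.42 to 0.041 for Hbb-b2 and from −0.23 to 0.22 for Alas2. The cause was not tested.

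The replicate numbers do not pair the mice (correlations of −0.09 to 0.15 between mice of one number). A replicate block called 0 of the 5 probes and 0 slopes, with 1329 probes at an unadjusted p under 0.05 against 872.

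Probes called with the globin term numbered 159 without a filter on signal, 410 with trend and robust variances and 59 without wildtype mice 2 and 3, and 122 to 209 with single mice left out, against 246. Genes called over all lists, 1 in the fit reported, numbered 2 with normexp background, 2 without normalization, 3 with trend and robust variances, and 0 without a filter, with probes above background on all 8 arrays only, with the methods' t-test or without wildtype mice 2 and 3, and 0 to 1 with single mice left out.

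The pair of Hba-a1 and Hbb-b1 passed with r of 0.83 on deviations from genotype means, 0.79 with a 75th percentile shift, 0.80 with normexp, 0.81 without normalization and 0.90 without wildtype mice 2 and 3. Without those 2 mice Hbb-b2 also passed with Hba-a1 (0.98), Hba-a2 (0.99) and Alas2 (0.99). Wildtype mouse 3, whose Hbb-b2 signal departed from the other probes, is 1 of those 2, so these passes are not read as support. With single mice left out, r ran from 0.96 to 0.99 for Hba-a1 and Hba-a2, the only pair of the 6 that passed in each such fit. It ran from 0.83 to 0.97 for Hba-a1 and Alas2, from 0.94 to 0.99 for Hba-a2 and Alas2, from 0.68 to 0.93 for Hba-a2 and Hbb-b1, from 0.83 to 0.97 for Hbb-b1 and Alas2 and from 0.76 to 0.96 for Hbb-b1 and Hbb-b2. For pairs that did not pass with all mice it ran from 0.52 to 0.90 for Hba-a1 and Hbb-b1, from 0.035 to 0.98 for Hba-a1 and Hbb-b2, from 0.20 to 0.99 for Hba-a2 and Hbb-b2 and from 0.39 to 0.98 for Hbb-b2 and Alas2.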
